A study of Homo sapiens with 12 samples.

Results

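Cholesterol and fatty acid synthesis was followed through 31 genes in HLE-B3, a human lens epithelial cell (LEC) line that was immortalized. The genes were chosen by name, as enzymes of the mevalonate, sterol and fatty acid routes and the proteins that regulate them. All 31 were found among the 58735 genes of the count and FPKM tables, where FPKM is a read count scaled by gene length and library size. RNA was sequenced in 12 libraries, 3 biological replicates each of WT cells at 0 h without treatment, WT cells after 12 h with 200 μM H2O2, and ATG7 KO cells (Atg7KO in the sample labels) under the same 2 conditions. ATG7 is the activating enzyme that autophagosome formation depends on, and the ATG7 KO cells were made by CRISPR/Cas9. Which clone was sequenced, or whether it was more than 1, is not said in the labels. All cells grew in DMEM/F12 medium with fetal bovine serum, which supplies cholesterol in lipoproteins. Because untreated cells were taken at 0 h, effects of H2O2 and of 12 h in culture cannot be told apart. The study asked how autophagy bears on the response of LECs to oxidative stress. The comparisons here ask how lipid synthesis genes respond to H2O2 in WT and in ATG7 KO cells, and whether those responses differ.

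Cholesterol is built from acetyl-CoA through mevalonate, isoprenoid diphosphates, squalene and lanosterol, and most of the enzymes sit in the endoplasmic reticulum. When sterols in that membrane run low, the escort protein SCAP carries the precursors of the SREBP transcription factors, made from SREBF1 and SREBF2, to the Golgi, where proteases release the active factors. INSIG proteins hold SCAP back when sterols are plentiful, and INSIG1 is itself an SREBP target, so transcripts of the pathway often move together. Fatty acid synthesis shares the acetyl-CoA supply and, mainly through SREBF1, the same control. The lens carries an unusually high proportion of cholesterol in its fibre cell membranes, and inherited defects of late sterol synthesis can cause cataract.

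The libraries held between 15602183 and 17659496 reads on genes. Mitochondrial genes took 4.29% to 4.97% of them in untreated and 3.16% to 3.90% in treated libraries, without overlap, and the part of this shift in the H2O2 results was not tested. Untreated ATG7 KO replicate 1 stood apart from the other 2 untreated ATG7 KO libraries. Its mean Pearson r with them was 0.974 over all genes, against 0.983 to 0.992 for the other 11 libraries with their own groups. Its chi-square per gene was 77.6 against replicate 2 and 75.9 against replicate 3, while no other replicate pair exceeded 4.41. The deviation of this library from the mean of the other 2 fell with gene length (Spearman correlation across genes of -0.355 over 16856 genes and of -0.647 over the 31 genes studied here, given as a description). The fits with untreated ATG7 KO cells were therefore also run without it. Counts of genes without overlap, counts over further pathway genes and medians by role are given only with it. Among 8 markers of lens epithelium, GJA1 (group means between 23.9 and 50.5 FPKM) and SIX3 (1.98 to 3.06 FPKM) were present and PAX6 was low (0.56 to 1.27 FPKM). FOXE3, PITX3, CRYAA and CDH1 were at or near 0. CRYAB had group means of 0.172 FPKM in untreated and 1.65 in treated WT cells, and 0.0119 in untreated and 0.94 in treated ATG7 KO cells. The 6 lens fibre markers summed to at most 1.35 FPKM in any library. The 8 markers of hepatocytes and adipocytes, which make much lipid, summed to at most 0.493 FPKM, and the 4 leukocyte markers to at most 2.12 FPKM. ATG7 mRNA was not lower in the libraries labelled ATG7 KO (3.55 ± 0.205 FPKM, SD, n = 3, against 2.55 ± 0.313 FPKM in untreated WT cells, and 2.19 ± 0.137 against 1.96 ± 0.0411 FPKM after H2O2), so these values do not check that label.

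Promoters are shown for 4 genes that carry the results below: HMGCS1, at the entry to the mevalonate route, MSMO1, an enzyme of the late sterol route, INSIG1, the sterol-dependent brake, and SREBF2, which encodes the main cholesterol-regulating factor. The sequences are from RefSeq on GRCh38.p14, each from 250 bases before to 50 bases after the RefSeq start of the gene, written 5′ to 3′ on the strand of the gene. Capitals mark matches on either strand to TCACNCCAC (a form of the sterol response element), CACGTG (the E-box, which some SREBPs also bind) and CCAAT (the NF-Y box, whose factor acts with SREBPs).
HMGCS1, chr5:43313363-43313662, minus strand: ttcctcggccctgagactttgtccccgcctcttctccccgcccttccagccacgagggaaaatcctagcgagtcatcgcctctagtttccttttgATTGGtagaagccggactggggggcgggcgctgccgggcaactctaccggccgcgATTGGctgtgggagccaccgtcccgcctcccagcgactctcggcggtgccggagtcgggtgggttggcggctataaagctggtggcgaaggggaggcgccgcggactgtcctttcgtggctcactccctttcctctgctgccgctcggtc
MSMO1, chr4:165327419-165327718, plus strand: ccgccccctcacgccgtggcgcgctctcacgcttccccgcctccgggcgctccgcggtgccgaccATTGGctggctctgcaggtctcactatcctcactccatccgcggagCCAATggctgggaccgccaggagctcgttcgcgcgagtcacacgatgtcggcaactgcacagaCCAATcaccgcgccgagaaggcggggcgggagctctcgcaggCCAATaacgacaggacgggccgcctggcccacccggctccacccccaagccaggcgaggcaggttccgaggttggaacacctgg
INSIG1, chr7:155297628-155297927, plus strand: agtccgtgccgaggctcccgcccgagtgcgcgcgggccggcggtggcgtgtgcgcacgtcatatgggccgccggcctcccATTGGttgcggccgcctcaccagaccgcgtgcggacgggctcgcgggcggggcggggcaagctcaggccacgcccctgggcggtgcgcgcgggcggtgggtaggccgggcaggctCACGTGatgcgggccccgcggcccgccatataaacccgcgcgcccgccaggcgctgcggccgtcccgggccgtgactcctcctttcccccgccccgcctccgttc
SREBF2, chr22:41832855-41833154, plus strand: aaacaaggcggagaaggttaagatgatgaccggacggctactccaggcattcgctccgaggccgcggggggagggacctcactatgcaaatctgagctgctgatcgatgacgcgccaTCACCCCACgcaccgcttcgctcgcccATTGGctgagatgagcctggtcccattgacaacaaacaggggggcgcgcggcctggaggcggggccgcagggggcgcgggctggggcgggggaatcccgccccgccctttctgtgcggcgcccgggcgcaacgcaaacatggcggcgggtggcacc
RefSeq windows were matched for 27 of the 31 genes, all except SQLE, FDFT1, ACAT2 and FASN. CCAAT was found in 17 of the 27 windows (63.0%, against 35.7% of 27305 windows of all genes), with 4 matches in MSMO1, 2 in HMGCS1 and 1 each in INSIG1 and SREBF2. CACGTG was found in 4 windows (14.8%, against 7.43% of all), those of INSIG1, LSS, SC5D and SCAP. TCACNCCAC was found in the SREBF2 window and in no other of the 27 (3.70%, against 1.15% of all). GGGCGG, the GC box, was found in 25 windows (92.6%, against 44.6% of all) and is not in capitals. A match is a run of letters in a short window, and none of these shares was tested.

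Under H2O2, HMGCS1, IDI1 and MSMO1 rose in WT cells and fell in ATG7 KO cells. In WT cells CYP51A1 and SQLE rose as well, and in ATG7 KO cells MVD, FDFT1 and INSIG1 fell as well. LSS and DHCR7 fell in both kinds of cells, and further in ATG7 KO cells. In ATG7 KO cells SQLE was the only gene of the 31 that rose with all libraries in the fit. Of the 31 genes, all tested, 8 were higher and 14 lower in WT cells after H2O2 at an adjusted p under 0.01 (quasi-likelihood test of edgeR, Benjamini-Hochberg adjustment over all genes tested), where 30.9% of all 15913 genes tested were higher and 30.1% lower. Without treated WT replicate 1, 5 were higher. In ATG7 KO cells 1 was higher and 18 were lower, where 13.6% of 15475 genes were higher and 12.4% lower. The median log2 fold change of the 31 genes was -0.11 in WT cells and -0.69 in ATG7 KO cells, beside -0.01 and -0.03 for all genes tested. A log2 fold change beyond 1 in either direction with a mean above 1 FPKM was reached by 2 genes in WT cells (12.5% of all genes; 1 gene without untreated WT replicate 2) and by 6 in ATG7 KO cells (11.2% of all genes). Without untreated ATG7 KO replicate 1, the count in ATG7 KO cells was 4 higher and 23 lower (29.8% and 28.6% of all genes), with 3 beyond the fold threshold. The 19 genes called in ATG7 KO cells with all libraries kept their direction and their call without this library, while 12 and 13 of them kept it without untreated replicate 2 or 3, and 6 without any 1 of the 3 treated ATG7 KO libraries. Of the 3 genes that rose in WT and fell in ATG7 KO cells, MSMO1 lost its WT call without untreated WT replicate 2 (0.17, adjusted p = 0.0389) or treated WT replicate 1 (0.21, adjusted p = 0.0191). HMGCS1 lost its ATG7 KO call in 5 and IDI1 in 4 of 6 fits without 1 library. Among the other ATG7 KO calls, those of ACAT2, SQLE, SREBF2 and SCAP were lost in 5 such fits and those of MVD and TM7SF2 in 4. Those of FDPS, FDFT1, SREBF1, INSIG1 and FADS2 were lost in 3. In WT cells PMVK and FDPS lost theirs in 4 such fits and HSD17B7 in 2. No sign changed in any of these. The biological coefficient of variation was 0.161 in this comparison and 0.047 in WT cells. In bulk RNA, fewer cells that express a gene and less of its RNA per cell cannot be told apart.

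**Figure D1:**
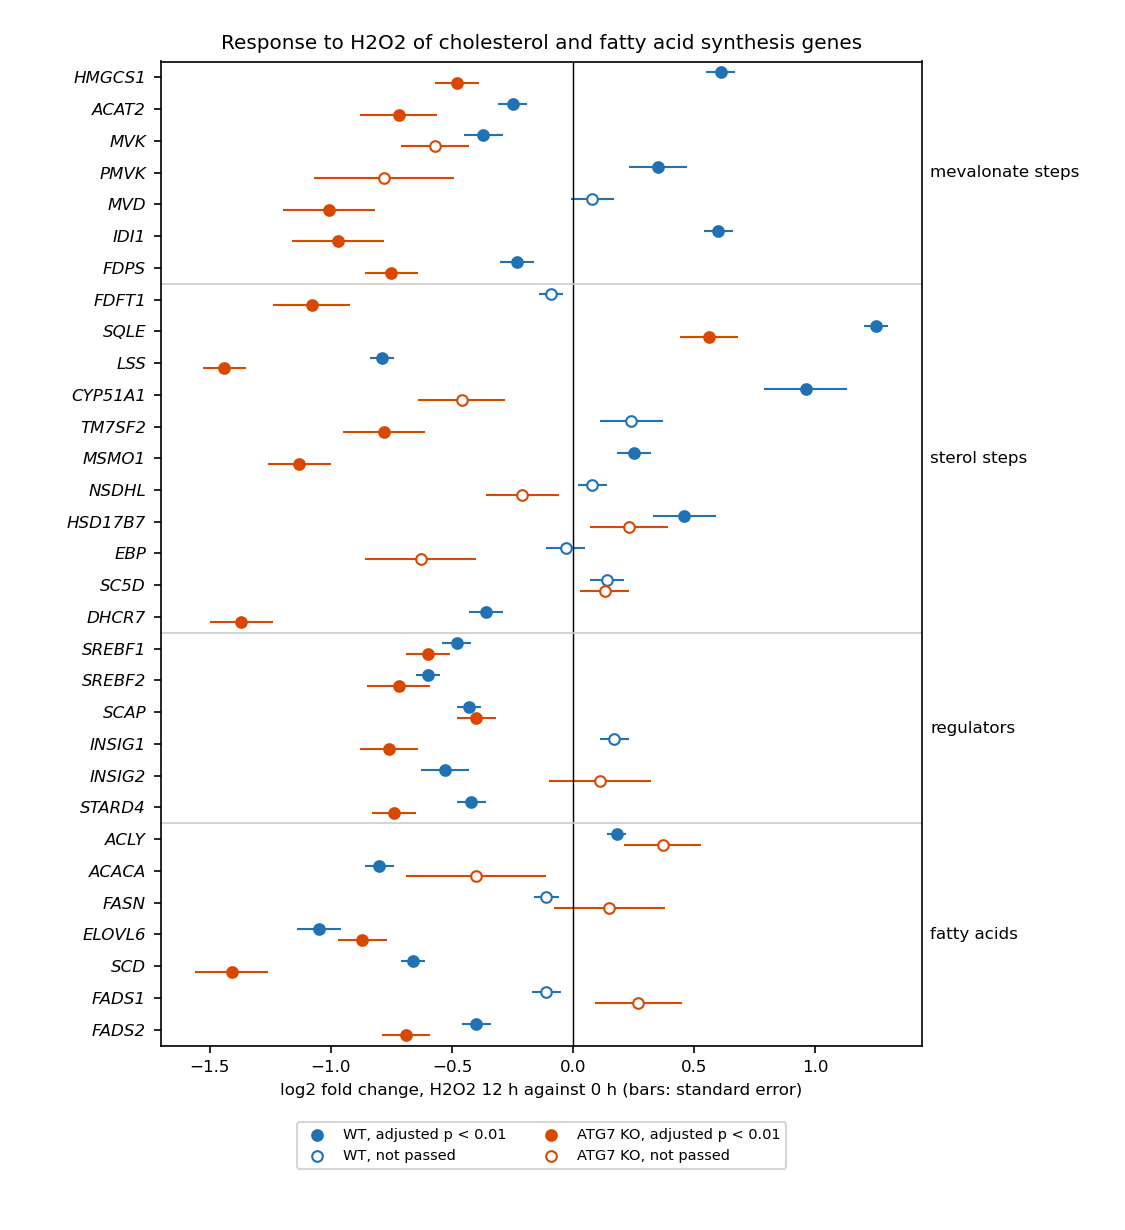
Log2 fold change (x axis) of each of the 31 genes (y axis, grouped by role) after 12 h of H2O2 against 0 h, in WT cells (blue) and ATG7 KO cells (orange), with standard errors as bars; filled points passed an adjusted p of 0.01. In the mevalonate and sterol groups most orange points lie left of 0 and left of the blue ones, and SQLE is the filled orange point on the right, at 0.56.

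The mevalonate enzymes turn acetyl-CoA into the isoprenoid units of squalene, and their changes after H2O2 were mixed in WT cells (3 of 7 higher, 3 lower) but downward in ATG7 KO cells (5 of 7 lower, and the other 2, MVK and PMVK, lower in every replicate without passing the test). HMGCS1, which makes HMG-CoA, had 9.38, 10.5 and 10.1 FPKM in untreated WT cells, 16.1, 14.0 and 15.6 in treated WT cells, 16.3, 16.2 and 17.7 in untreated ATG7 KO cells and 12.1, 12.4 and 11.7 in treated ATG7 KO cells. Treated and untreated libraries did not overlap in either kind of cells, and the treated ones were the higher in WT and the lower in ATG7 KO cells. In log2 fold change (with its standard error, SE), HMGCS1 rose by 0.61 in WT cells (SE 0.06, adjusted p = 3.95e-12) and fell by 0.48 in ATG7 KO cells (SE 0.09, adjusted p = 0.00462). IDI1, the isomerase that makes dimethylallyl diphosphate, had 11.9, 10.9 and 10.9 FPKM in untreated and 18.3, 15.9 and 16.9 in treated WT cells, and 24.9, 16.1 and 15.2 in untreated and 9.38, 10.4 and 9.06 in treated ATG7 KO cells. The first of the untreated ATG7 KO values is that of the library that stands apart, and the treated libraries lay below all 3. The log2 fold change of IDI1 was 0.60 in WT cells (SE 0.06, adjusted p = 2.66e-12) and -0.97 in ATG7 KO cells (SE 0.19, adjusted p = 0.00674; -0.72 without untreated replicate 1).

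MVD, which decarboxylates mevalonate diphosphate, had 4.03, 3.76 and 4.14 FPKM in untreated and 4.18, 4.57 and 3.96 in treated WT cells, and 6.92, 4.53 and 4.69 in untreated and 2.64, 2.99 and 2.42 in treated ATG7 KO cells. The WT groups overlapped and the ATG7 KO groups did not. Its log2 fold change was 0.08 in WT cells (SE 0.09, adjusted p = 0.422) and -1.01 in ATG7 KO cells (SE 0.19, adjusted p = 0.00494; -0.80 without untreated replicate 1). FDPS, the farnesyl diphosphate synthase, fell in both, by 0.23 and 0.75 on the log2 scale (adjusted p = 0.00575 and 0.00213), from 11.1 ± 1.13 to 9.53 ± 0.674 FPKM in WT cells and from 11.6 ± 1.42 to 6.92 ± 0.379 FPKM in ATG7 KO cells. ACAT2, which condenses acetyl-CoA, also fell in both, by 0.25 and 0.72 (adjusted p = 8.67e-05 and 0.00935), from 17.6 ± 0.924 to 14.8 ± 0.0351 FPKM and from 22.0 ± 5.02 to 13.4 ± 0.191 FPKM. MVK and PMVK, the kinases of mevalonate and of its phosphate, changed in WT cells in opposite directions, MVK by -0.37 (adjusted p = 7e-05, from 4.52 ± 0.122 to 3.49 ± 0.285 FPKM) and PMVK by 0.35 (adjusted p = 0.00719, from 7.91 ± 0.836 to 10.2 ± 0.880 FPKM). In ATG7 KO cells MVK had 5.25 ± 1.01 FPKM untreated and 3.54 ± 0.0864 FPKM treated (adjusted p = 0.0157). PMVK had 14.0 ± 6.44 and 8.15 ± 0.333 FPKM (adjusted p = 0.0682). The PMVK replicates in untreated ATG7 KO cells were 21.5, 10.5 and 10.1 FPKM, the high value again that of the library that stands apart, and without it both kinases fell, MVK by 0.41 (adjusted p = 3.05e-06) and PMVK by 0.35 (adjusted p = 0.00688).

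Among the sterol enzymes, from squalene synthesis onwards, MSMO1 rose in WT cells and fell in ATG7 KO cells, SQLE rose in both, and LSS and DHCR7 fell in both. Of 11 genes, 4 were higher and 2 lower in WT cells after H2O2, and 1 was higher and 5 lower in ATG7 KO cells. SQLE, the squalene epoxidase and a rate-limiting step, had 17.8, 16.5 and 16.8 FPKM in untreated and 40.7, 41.8 and 39.5 in treated WT cells, and 34.3, 27.9 and 25.4 in untreated and 42.5, 43.4 and 43.2 in treated ATG7 KO cells. Untreated ATG7 KO cells thus lay between the untreated and treated WT cells, and the treated groups of both kinds were close. SQLE rose by 1.25 on the log2 scale in WT cells (SE 0.05, adjusted p = 8.49e-27) and by 0.56 in ATG7 KO cells (SE 0.12, adjusted p = 0.00913). The rise in ATG7 KO cells passed the test without untreated replicate 1 (0.68, adjusted p = 2.65e-43) and in none of the fits without 1 of the other 5 libraries (0.47 to 0.57). MSMO1, a methyl oxidase in the demethylation of the sterol ring, had 13.9, 11.9 and 13.5 FPKM in untreated and 16.2, 14.8 and 15.6 in treated WT cells, and 26.6, 20.2 and 19.9 in untreated and 10.4, 9.87 and 10.2 in treated ATG7 KO cells. Neither pair of groups overlapped, and the treated ATG7 KO cells had the lowest and the untreated ATG7 KO cells the highest values of the 4 groups. Its log2 fold change was 0.25 in WT cells (SE 0.07, adjusted p = 0.00138) and -1.13 in ATG7 KO cells (SE 0.13, adjusted p = 0.000665).

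CYP51A1, the lanosterol demethylase, was expressed at a low level, with 1.01, 0.925 and 1.02 FPKM in untreated and 2.34, 1.59 and 1.83 in treated WT cells, and 1.59, 2.13 and 1.52 in untreated and 1.29, 1.38 and 1.17 in treated ATG7 KO cells. The treated libraries were all higher in WT cells and all lower in ATG7 KO cells. The log2 fold change was 0.96 in WT cells (SE 0.17, adjusted p = 4.1e-06) and -0.46 in ATG7 KO cells, where it did not pass the test (SE 0.18, adjusted p = 0.0817). Without untreated ATG7 KO replicate 1 it passed, at -0.52 (adjusted p = 0.00729). FDFT1, the squalene synthase, had 24.4, 23.0 and 24.4 FPKM in untreated and 22.3, 22.6 and 22.7 in treated WT cells, and 43.5, 30.0 and 29.0 in untreated and 15.9, 16.8 and 15.9 in treated ATG7 KO cells. The treated libraries lay just below the untreated ones in WT cells and far below them in ATG7 KO cells. FDFT1 differed by -0.09 in WT cells (adjusted p = 0.0805) and fell by 1.08 in ATG7 KO cells (SE 0.16, adjusted p = 0.00198).

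LSS, which closes the sterol rings to lanosterol, and DHCR7, which makes cholesterol from 7-dehydrocholesterol, fell in both kinds of cells and further in ATG7 KO cells. LSS had 14.3, 15.3 and 14.8 FPKM in untreated and 8.98, 8.57 and 8.23 in treated WT cells, and 17.0, 19.2 and 18.3 in untreated and 6.41, 6.91 and 6.85 in treated ATG7 KO cells. Its log2 fold change was -0.79 in WT cells (SE 0.05, adjusted p = 7.71e-18) and -1.44 in ATG7 KO cells (SE 0.09, adjusted p = 5.73e-05), and no groups overlapped. DHCR7 had 10.1, 10.4 and 10.7 FPKM in untreated and 9.07, 7.15 and 8.12 in treated WT cells, and 10.3, 13.1 and 12.4 in untreated and 5.04, 4.36 and 4.48 in treated ATG7 KO cells. The untreated groups overlapped and each treated group lay below them. DHCR7 fell by 0.36 in WT cells (SE 0.07, adjusted p = 1.99e-05) and by 1.37 in ATG7 KO cells (SE 0.13, adjusted p = 0.000282).

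The other 5 sterol enzymes were HSD17B7, TM7SF2, NSDHL, EBP and SC5D. HSD17B7, a ketosteroid reductase of the demethylation complex, rose in WT cells from 1.69 ± 0.192 to 2.34 ± 0.199 FPKM (log2 fold change 0.46, adjusted p = 0.00135) and had 2.69 ± 0.594 and 3.14 ± 0.0859 FPKM in ATG7 KO cells (adjusted p = 0.301; 0.40 and adjusted p = 0.000916 without untreated replicate 1). TM7SF2, a sterol reductase, had 2.22 ± 0.160 and 2.62 ± 0.165 FPKM in WT cells (adjusted p = 0.108) and fell in ATG7 KO cells from 2.71 ± 0.526 to 1.58 ± 0.0581 FPKM (-0.78, adjusted p = 0.00991). TM7SF2 overlaps VPS51 on the same strand, and the highest group mean of VPS51 reads was 2520% of the lowest of TM7SF2, so its values are uncertain. NSDHL, the partner of HSD17B7 in demethylation, had 22.3 ± 0.803 and 23.6 ± 0.854 FPKM in WT and 29.9 ± 6.14 and 25.9 ± 1.94 FPKM in ATG7 KO cells, and did not pass the test in either. The isomerase EBP had 11.7 ± 1.16 and 11.5 ± 0.794 FPKM in WT cells (adjusted p = 0.719) and 18.4 ± 6.80 and 11.9 ± 0.382 FPKM in ATG7 KO cells (adjusted p = 0.0671), with 26.2, 14.5 and 14.4 FPKM in the untreated ATG7 KO libraries. Without the first of these EBP fell by 0.29 (adjusted p = 0.000396). SC5D, the desaturase before DHCR7, had 5.84 ± 0.223 and 6.44 ± 0.193 FPKM in WT and 5.03 ± 0.389 and 5.54 ± 0.0458 FPKM in ATG7 KO cells, with log2 fold changes of 0.14 and 0.13 that did not pass (adjusted p = 0.0774 and 0.302).

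**Figure D2:**
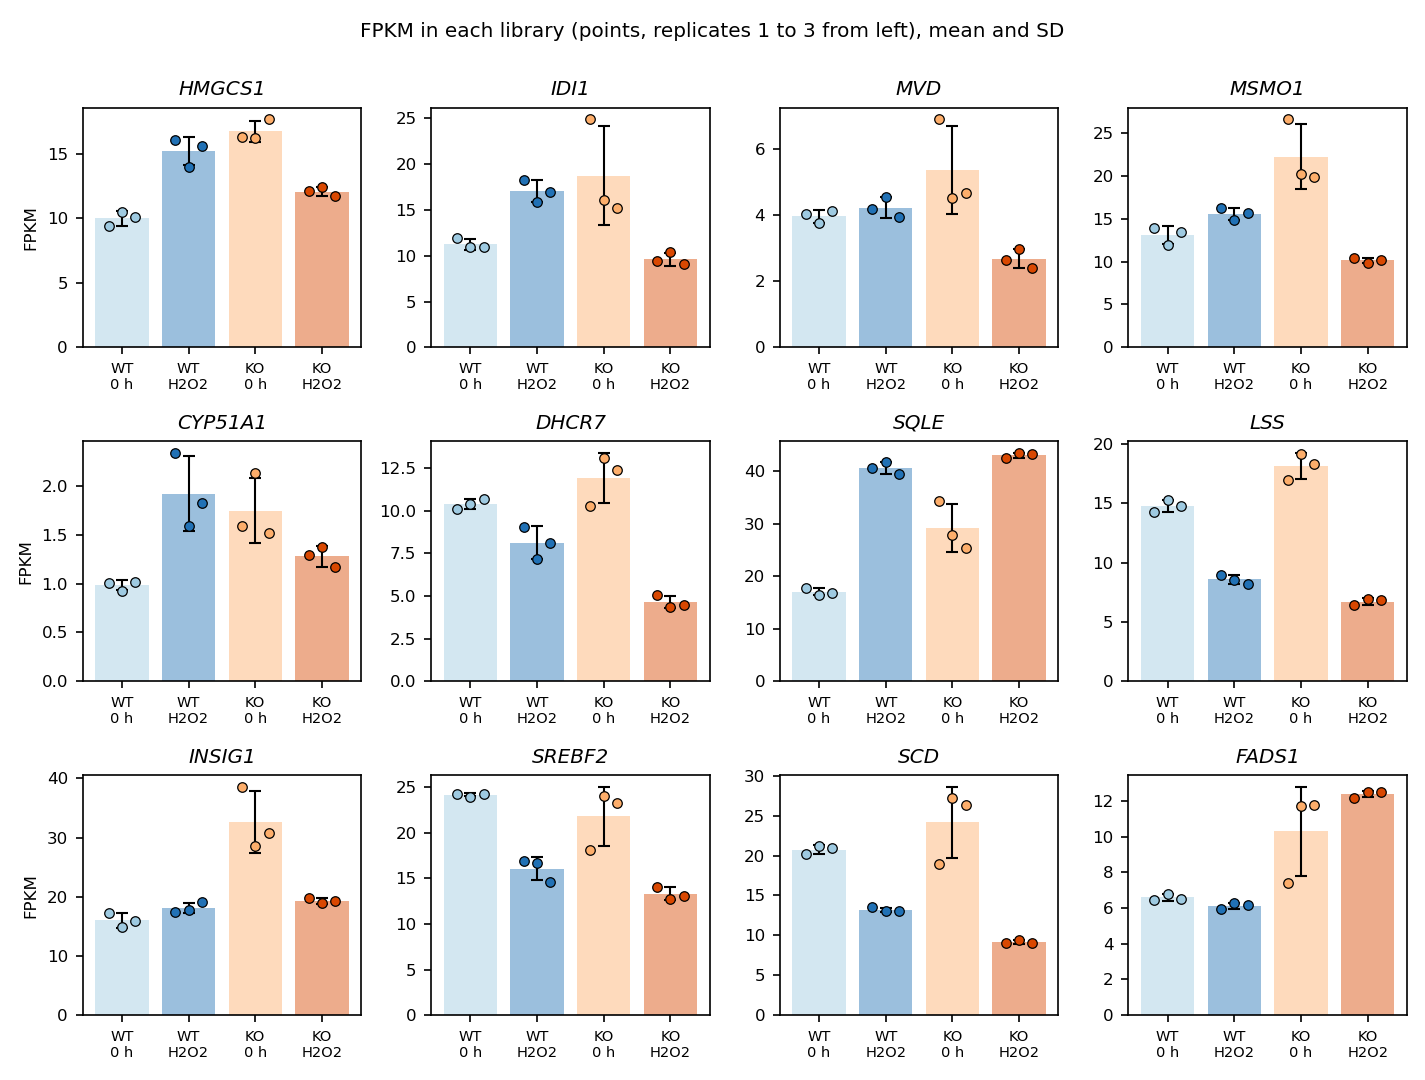
FPKM (y axis, from 0) of 12 genes in the 4 groups (x axis); points are the 3 libraries of a group, bars their mean and error bars the SD. HMGCS1, IDI1, MSMO1 and CYP51A1 are high in treated WT and untreated ATG7 KO cells, while DHCR7, LSS, SREBF2 and SCD are low in both treated groups and lowest in treated ATG7 KO cells.

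SREBF1, SREBF2, SCAP and STARD4 fell after H2O2 in both kinds of cells, while the INSIG genes did not move alike. In ATG7 KO cells the calls of SREBF2 and SCAP were each lost in 5 of 6 fits without 1 library, and that of SREBF1 in 3. STARD4 kept its call in each of these fits. SREBF2 had 24.3, 24.0 and 24.3 FPKM in untreated and 16.9, 16.7 and 14.6 in treated WT cells, and 18.1, 24.1 and 23.3 in untreated and 14.1, 12.8 and 13.1 in treated ATG7 KO cells. Each treated library lay below every untreated one. SREBF2 fell by 0.60 in WT cells (SE 0.05, adjusted p = 6.55e-15) and by 0.72 in ATG7 KO cells (SE 0.13, adjusted p = 0.00486). SREBF1, the precursor gene more tied to fatty acids, fell by 0.48 and 0.60 (adjusted p = 2.22e-09 and 0.00203), from 7.35 ± 0.307 to 5.27 ± 0.288 FPKM and from 6.24 ± 0.0331 to 4.12 ± 0.291 FPKM. SCAP fell by 0.43 and 0.40 (adjusted p = 7.51e-10 and 0.00720), from 14.8 ± 0.302 to 11.0 ± 0.523 FPKM and from 14.2 ± 0.342 to 10.8 ± 0.313 FPKM. STARD4, a carrier of cholesterol between membranes, fell by 0.42 and 0.74 (adjusted p = 1.18e-07 and 0.000716), from 8.98 ± 0.515 to 6.72 ± 0.0760 FPKM and from 12.4 ± 0.690 to 7.46 ± 0.194 FPKM.

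INSIG1 had 17.3, 14.8 and 15.9 FPKM in untreated and 17.4, 17.7 and 19.1 in treated WT cells, and 38.6, 28.5 and 30.8 in untreated and 19.8, 18.9 and 19.2 in treated ATG7 KO cells. The untreated ATG7 KO libraries stood above all the others, and the other 3 groups lay between 14.8 and 19.8 FPKM. INSIG1 differed by 0.17 in WT cells (SE 0.06, adjusted p = 0.0118) and fell by 0.76 in ATG7 KO cells (SE 0.12, adjusted p = 0.00294). INSIG2, a homologue that also holds SCAP back, had 4.91, 5.49 and 4.69 FPKM in untreated and 3.33, 3.34 and 3.83 in treated WT cells, and 5.73, 3.75 and 3.23 in untreated and 4.98, 4.33 and 4.44 in treated ATG7 KO cells. It fell by 0.53 in WT cells (SE 0.10, adjusted p = 9.38e-06). In ATG7 KO cells the untreated and treated libraries overlapped (0.11, SE 0.21, adjusted p = 0.686), and without untreated replicate 1 INSIG2 rose by 0.38 (adjusted p = 0.000621).

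The fatty acid genes did not move as a block. In WT cells 1 of 7 was higher after H2O2 and 4 were lower, and in ATG7 KO cells 0 were higher and 3 lower at an adjusted p under 0.01 in edgeR's test, with 3 of the 7 at an unadjusted p under 0.05. Without untreated ATG7 KO replicate 1, ACLY also passed as higher (0.21) and ACACA as lower (-0.70) in ATG7 KO cells, both in their WT direction. SCD, which makes monounsaturated fatty acids, had 20.2, 21.2 and 20.9 FPKM in untreated and 13.5, 13.1 and 13.0 in treated WT cells, and 19.0, 27.2 and 26.3 in untreated and 8.99, 9.41 and 9.08 in treated ATG7 KO cells. The treated libraries lay below the untreated ones in both kinds of cells, and lowest in ATG7 KO cells. SCD fell by 0.66 in WT cells (SE 0.05, adjusted p = 1.09e-15) and fell by 1.41 in ATG7 KO cells (SE 0.15, adjusted p = 0.000512). ELOVL6, which elongates palmitate, fell by 1.05 and 0.87 (adjusted p = 1.02e-13 and 0.000738), from 3.78 ± 0.368 to 1.84 ± 0.0720 FPKM and from 3.88 ± 0.254 to 2.13 ± 0.102 FPKM. FADS2, a desaturase of polyunsaturated fatty acids, fell by 0.40 and 0.69 (adjusted p = 3.98e-08 and 0.00148), from 6.71 ± 0.400 to 5.12 ± 0.0820 FPKM and from 6.68 ± 0.475 to 4.15 ± 0.196 FPKM.

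ACACA, which makes malonyl-CoA, had 5.23, 5.36 and 5.85 FPKM in untreated and 3.16, 3.16 and 3.12 in treated WT cells, and 2.23, 5.19 and 4.81 in untreated and 3.08, 3.06 and 3.18 in treated ATG7 KO cells. The low untreated ATG7 KO value is that of replicate 1. ACACA fell by 0.80 in WT cells (adjusted p = 2.14e-16), did not pass in ATG7 KO cells (-0.40, adjusted p = 0.303) and fell by 0.70 there without that library (adjusted p = 6.34e-25). FASN, the fatty acid synthase, had 20.1 ± 0.309 and 18.7 ± 0.984 FPKM in WT cells (adjusted p = 0.0274) and 17.1 ± 5.30 and 19.1 ± 0.507 FPKM in ATG7 KO cells (adjusted p = 0.618). ACLY, which splits citrate to cytosolic acetyl-CoA and had the highest mean FPKM of the 31 genes in each group, rose in WT cells from 75.0 ± 1.69 to 85.1 ± 2.41 FPKM (0.18, adjusted p = 0.000217) and had 56.4 ± 11.4 and 73.2 ± 1.75 FPKM in ATG7 KO cells (adjusted p = 0.104; 0.21 and adjusted p = 9.8e-09 without untreated replicate 1). FADS1, the desaturase that acts after FADS2, had 6.60 ± 0.182 and 6.14 ± 0.176 FPKM in WT cells (adjusted p = 0.0749) and 10.3 ± 2.50 and 12.4 ± 0.185 FPKM in ATG7 KO cells (adjusted p = 0.279).

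Without treatment, ATG7 KO cells had higher levels than WT cells of INSIG1 and of enzymes along the sterol route, and after H2O2 most of those enzymes were lower in ATG7 KO than in WT cells. In untreated cells 4 of the 31 genes were higher and 0 lower in ATG7 KO cells at an adjusted p under 0.01 in edgeR's test (4.42% and 3.28% of 15357 genes), with 17 of the 31 at an unadjusted p under 0.05 in either direction, and DESeq2 called 7 higher and 0 lower. The 4 were INSIG1 (log2 fold change 1.02, SE 0.13, adjusted p = 0.00276), SQLE (0.77, SE 0.12, adjusted p = 0.00628), MSMO1 (0.76, SE 0.14, adjusted p = 0.00983) and HMGCS1 (0.75, SE 0.10, adjusted p = 0.00263), each higher in all 3 ATG7 KO libraries. Over the 31 genes, the libraries of ATG7 KO cells lay above those of WT cells without overlap in 17 and below in 4, beside 22.4% and 22.9% of all genes. The median of the 31 log2 fold changes was 0.30, and that of all genes 0.01. The calls depended on single libraries. Without untreated ATG7 KO replicate 1, 16 of the 31 were higher and 3 lower (18.2% and 17.9% of 15848 genes), and without any 1 of the 3 untreated WT libraries 0 were higher. Without untreated ATG7 KO replicate 2 or 3, 1 and 2 were higher. The 16 included the first 4, now at 0.90 for INSIG1, 0.65 for SQLE, 0.62 for MSMO1 and 0.77 for HMGCS1, and also CYP51A1 (0.89, adjusted p = 3.32e-05), FADS1 (0.83, adjusted p = 1.26e-38), IDI1 (0.49, adjusted p = 1.24e-12), HSD17B7 (0.48, adjusted p = 0.00205) and STARD4 (0.44, adjusted p = 5.33e-11). The 3 lower were INSIG2 (-0.52), ACLY (-0.25) and SREBF1 (-0.23).

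**Figure D3:**
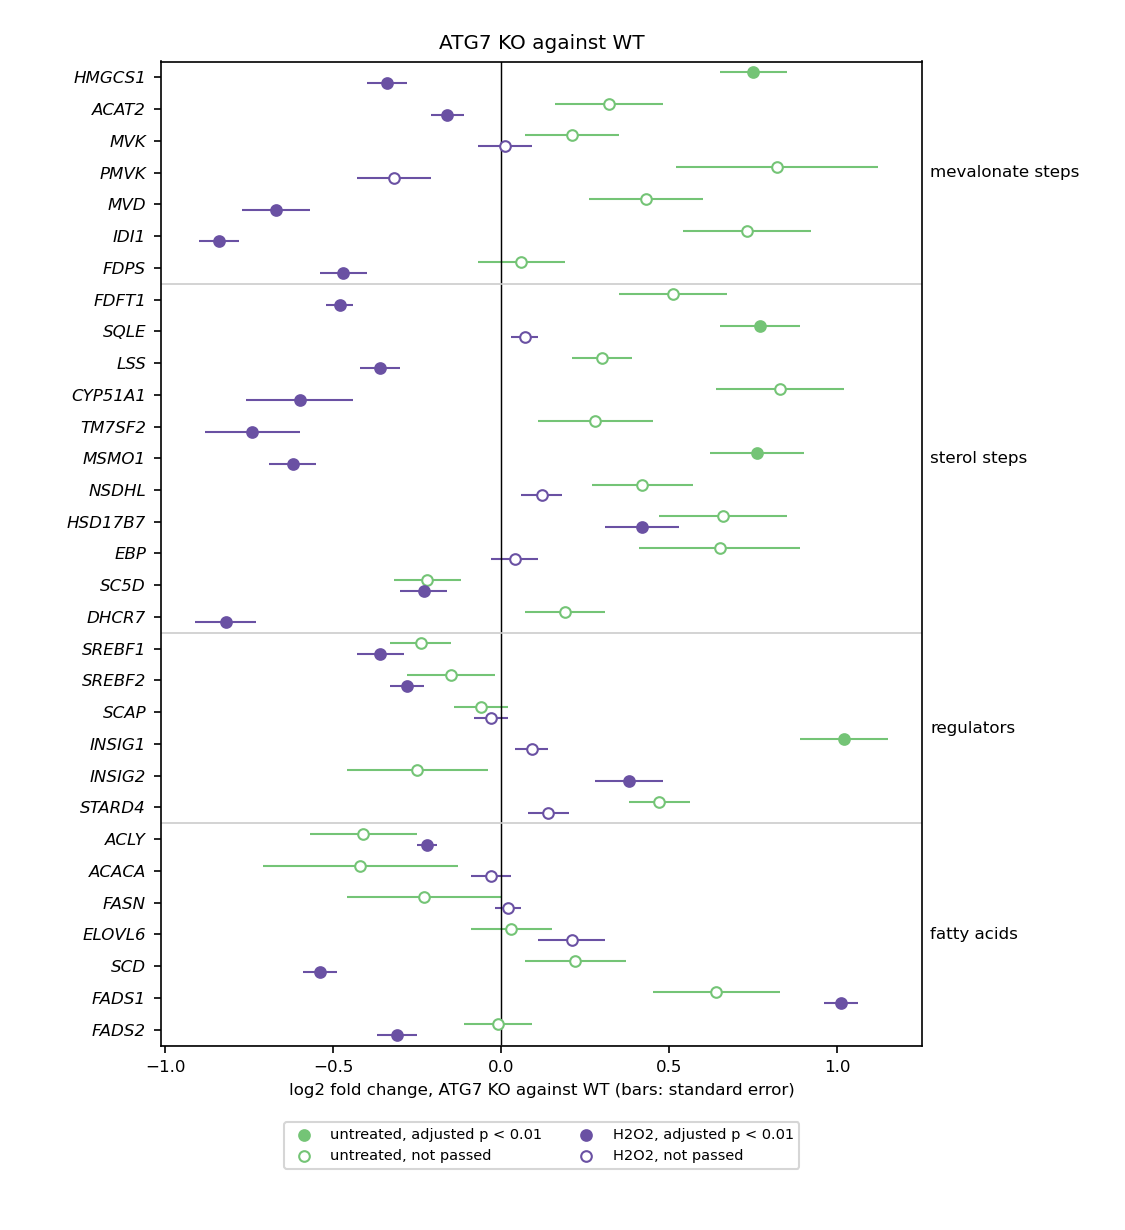
Log2 fold change (x axis) of each of the 31 genes (y axis, grouped by role) in ATG7 KO against WT cells, untreated (green) and after 12 h of H2O2 (purple), with standard errors as bars; filled points passed an adjusted p of 0.01. Green points of the mevalonate and sterol groups lie mostly right of 0 and purple ones mostly left of it, and FADS1 is the filled purple point farthest right, at 1.01.

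After H2O2, 3 of the 31 genes were higher and 17 lower in ATG7 KO than in WT cells (27.7% and 27.9% of 15909 genes), with a median log2 fold change of -0.23 beside 0.00 for all genes. This comparison does not use the untreated libraries, and its biological coefficient of variation was 0.0416. The lower genes were 5 of 7 mevalonate enzymes, 7 of 11 sterol enzymes, 2 of 6 regulators and 3 of 7 fatty acid genes. IDI1 differed by -0.84 (SE 0.06, adjusted p = 1.43e-13), DHCR7 by -0.82 (SE 0.09, adjusted p = 8.53e-10), TM7SF2 by -0.74 (adjusted p = 1.87e-05), MVD by -0.67 (adjusted p = 9.55e-07), MSMO1 by -0.62 (adjusted p = 7.94e-10) and CYP51A1 by -0.60 (adjusted p = 0.00186). SCD (-0.54), FDFT1 (-0.48), FDPS (-0.47), LSS and SREBF1 (both -0.36), HMGCS1 (-0.34), FADS2 (-0.31), SREBF2 (-0.28), SC5D (-0.23), ACLY (-0.22) and ACAT2 (-0.16) were also lower. ACAT2 lost its call in all 6 fits without 1 library (adjusted p between 0.0111 and 0.0623), SC5D in 4, CYP51A1 in 2 and, of the higher genes, INSIG2 in 1. Tested genes that start within 1 Mb of a lower gene were often lower too for some of the 17. For ACLY 45 of 53 neighbours were lower, and their median of -0.45 lay beyond the -0.22 of ACLY itself. For MVD 22 of 30 were lower (median -0.42), for SCD 16 of 25, for DHCR7 8 of 13 and for MSMO1 4 of 8 (median -0.32 for each of these), and for IDI1 5 of 7 (median -0.17). The medians for the other 11 lower genes lay between -0.11 and 0.26. The part of the neighbours in these results was not tested. The 3 higher genes were FADS1, INSIG2 (0.38, adjusted p = 0.00134) and HSD17B7 (0.42, adjusted p = 0.000904).

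FADS1 was the only one of the 31 beyond a log2 fold change of 1 here (7.46% of all genes passed the p and fold thresholds in either direction). It had 12.2, 12.5 and 12.5 FPKM in treated ATG7 KO cells and 5.95, 6.30 and 6.15 in treated WT cells, and in untreated cells 7.40, 11.7 and 11.8 against 6.47, 6.81 and 6.52. All ATG7 KO libraries lay above all WT libraries, replicate 1 of the untreated ones by the least. The log2 fold change after H2O2 was 1.01 (SE 0.05, adjusted p = 1.68e-18), and without treated WT replicate 1 it was 0.98. FADS1 (chromosome 11, 61799625 to 61829318, minus strand) lies within the span of FADS2 (61792980 to 61867354, plus strand). The level of FADS2 was lower in treated ATG7 KO than in treated WT cells, and how far reads of both genes are shared was not tested. SQLE (0.07, adjusted p = 0.0899) and INSIG1 (0.09, adjusted p = 0.139), both higher in untreated ATG7 KO cells, did not pass the test after H2O2.

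A difference of the responses, ATG7 KO minus WT, was fitted over all 12 libraries. The response of 12 of the 31 genes was lower in ATG7 KO cells (7.01% of 16856 genes) and that of 0 was higher (7.02%) in edgeR's test, with 19 of the 31 at an unadjusted p under 0.05 in either direction, and DESeq2 called 13 lower and 0 higher. The 12 were 3 of 7 mevalonate enzymes, 7 of 11 sterol enzymes, 1 of 6 regulators and 1 of 7 fatty acid genes, and 7 of them passed the fold threshold (5.17% of all genes in either direction). IDI1 had a difference of -1.57 (SE 0.21, adjusted p = 0.000377), CYP51A1 of -1.41 (SE 0.25, adjusted p = 0.00171) and MSMO1 of -1.37 (SE 0.16, adjusted p = 0.000108). MVD (-1.09, adjusted p = 0.00274), HMGCS1 (-1.08, adjusted p = 6.16e-05), DHCR7 (-1.01, adjusted p = 0.000789) and TM7SF2 (-1.01, adjusted p = 0.00345) followed. The other 5 were FDFT1 (-0.99, adjusted p = 0.00152), INSIG1 (-0.93, adjusted p = 0.000848), SCD (-0.75, adjusted p = 0.00446), SQLE (-0.69, adjusted p = 0.00239) and LSS (-0.65, adjusted p = 0.000774). For SQLE the difference is between a larger and a smaller rise, and for LSS, DHCR7 and SCD between a smaller and a larger fall. It lies for HMGCS1, IDI1 and MSMO1 between a rise and a fall. Tested genes that start within 1 Mb also had lower responses for some of the 12. For TM7SF2 62 of 87 neighbours were lower (median -0.38) and for MVD 22 of 31 (median -0.36). SQLE had 9 of 14 lower (median -0.44) and SCD 18 of 27 (median -0.29). The medians for the other called genes lay between -0.19 and 0.38, and the part of the neighbours was not tested. In the test of the difference, SREBF1 and SREBF2 (both -0.12, adjusted p = 0.43 and 0.554) and SCAP (0.03, adjusted p = 0.824) did not pass. Without untreated ATG7 KO replicate 1, SREBF2 passed (-0.23, adjusted p = 0.00289), while SREBF1 (adjusted p = 0.323) and SCAP (adjusted p = 0.878) did not.

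The median difference was -0.47 over the 31 genes and -0.03 over all genes. By role it was -1.08 for the mevalonate enzymes, -0.69 for the sterol enzymes, -0.12 for the regulators and 0.20 for the fatty acid genes. These medians are from all libraries and were not computed without untreated ATG7 KO replicate 1, so the order of the roles may depend on that library. Without that library, each mevalonate enzyme except HMGCS1 had a less negative difference, and each fatty acid gene a lower one. PMVK then had -0.69 (-1.14 with all libraries) and FASN 0.04 (0.26 with all libraries). The mevalonate enzymes then ranged from -1.30 for IDI1 to -0.03 for MVK. The fatty acid genes ranged from -0.89 for SCD to 0.19 for FADS1. The 12 called genes kept their call without untreated ATG7 KO replicate 1, with differences of -1.30 for IDI1, -1.47 for CYP51A1, -1.22 for MSMO1 and -1.09 for HMGCS1. The count without that library was 18 lower and 1 higher (16.3% and 17.8% of 17543 genes), the higher one INSIG2 at 0.92 (adjusted p = 1.18e-07), and -0.28 was then the median over the 31 genes. Of the 12, SCD lost its call without any 1 of the 9 libraries other than the untreated ATG7 KO ones (adjusted p between 0.0115 and 0.0159). TM7SF2 lost it without untreated WT replicate 1, treated WT replicate 1 or treated ATG7 KO replicate 2 or 3 (adjusted p between 0.0112 and 0.0122), and MVD lost it without treated ATG7 KO replicate 3 (adjusted p = 0.0101).

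**Figure D4:**
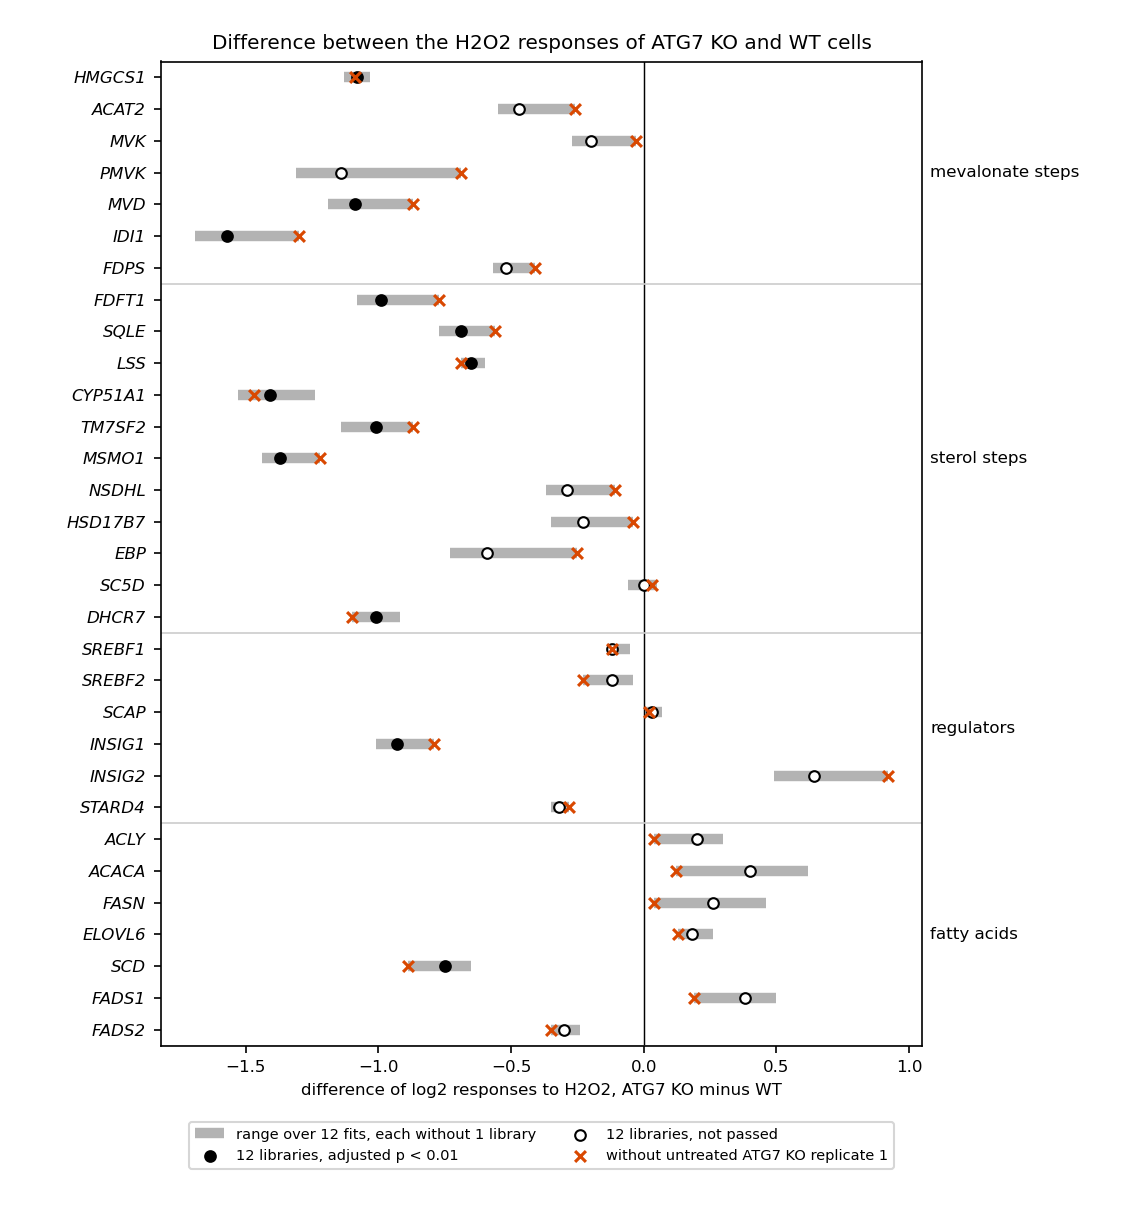
Difference of the log2 responses to H2O2, ATG7 KO minus WT (x axis), for each of the 31 genes (y axis, grouped by role). Circles are from all 12 libraries (filled at an adjusted p under 0.01), grey bars span the 12 fits that each leave out 1 library, and crosses are without untreated ATG7 KO replicate 1; HMGCS1 spans -1.13 to -1.03, while PMVK spans -1.31 to -0.69.

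Other genes of the pathway were taken from a list of 36, of which 18 are further synthesis enzymes and 18 act in uptake, export, storage and sensing of sterols. In WT cells 12 of the 34 tested were higher and 10 lower after H2O2, beside 30.9% and 30.1% of all genes. Of the 34 in ATG7 KO cells, 6 were higher and 6 lower, beside 13.6% and 12.4% of all genes. Between ATG7 KO and WT cells 1 of 34 was higher and 1 lower without treatment (4.42% and 3.28% of all genes), and 15 were higher and 8 lower after H2O2 (27.7% and 27.9% of all genes). The responses of 4 of 35 were higher and of 4 lower in ATG7 KO than in WT cells (7.02% and 7.01% of all genes), with a median difference of 0.01.

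MYLIP, a ubiquitin ligase induced by sterols, rose in WT cells from 1.91 ± 0.288 to 4.27 ± 0.583 FPKM (1.16, adjusted p = 2.34e-10) and had 1.35 ± 0.0788 and 1.02 ± 0.0832 FPKM in ATG7 KO cells (-0.42, adjusted p = 0.0747), a difference of -1.57 (SE 0.22, adjusted p = 0.000427). ABCA1, the cholesterol exporter and like MYLIP a target of the sterol-sensing LXR receptors, rose in both, from 2.64 ± 0.0270 to 16.5 ± 0.313 FPKM in WT cells (2.64, adjusted p = 3.51e-38) and from 2.91 ± 0.794 to 20.7 ± 0.126 FPKM in ATG7 KO cells (2.82, adjusted p = 0.000111). Its responses differed by 0.19 (adjusted p = 0.511). TMEM97, a sterol-responsive protein of the endoplasmic reticulum, also rose in both, by 0.59 and 1.06 (adjusted p = 3.88e-13 and 0.000221). Its response was higher in ATG7 KO cells, by 0.48, and passed the test of the difference with all libraries. The difference also passed without untreated ATG7 KO replicate 1 (0.56, adjusted p = 6.45e-10). Without any other single library it did not pass (adjusted p between 0.0113 and 0.0225). GGPS1, which makes geranylgeranyl diphosphate, fell in both, by 0.52 and 1.07 (adjusted p = 4.65e-05 and 0.00139). Without untreated ATG7 KO replicate 1 its log2 fold change in ATG7 KO cells was -0.93. The GGPS1 call in ATG7 KO cells was lost without any 1 of the 3 treated ATG7 KO libraries (adjusted p between 0.0104 and 0.0118). NPC2, which moves cholesterol out of lysosomes, was higher in untreated ATG7 KO than WT cells (48.3 ± 14.8 against 22.5 ± 0.344 FPKM, 1.10, adjusted p = 0.00982; 0.83 without replicate 1). It did not pass without any 1 of the other 5 libraries (adjusted p between 0.0143 and 0.0572).

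Of the 31 genes, 20 overlap another annotated gene, and in 8 the highest group mean of the other gene's reads exceeded 10% of the lowest group mean of their own. These are ACAT2 with TCP1, MVK with MMAB, FDPS with RUSC1-AS1, TM7SF2 with VPS51, SREBF1 with RAI1, STARD4 with STARD4-AS1, and FADS1 and FADS2 with each other, where FADS2 also overlaps FEN1. The strand setting of the counting is not given in the sources used here, so reads of pairs on opposite strands cannot be told apart with certainty. TM7SF2 with VPS51 and FADS2 with FEN1 lie on the same strand, where no strand setting would separate shared reads. The highest group mean of FEN1 reads was 373% of the lowest of FADS2, so the values of FADS2 are uncertain too.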

How the data were processed

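Total RNA of HLE-B3 cells was extracted with Trizol, and libraries were made with the NEBNext Ultra RNA kit by the authors, in 4 groups of 3 biological replicates, grouped here from the sample labels. The authors deposited raw read counts per gene, as whole numbers, and FPKM values scaled by gene length and library size. The submitters' processing notes name HISAT2 2.0.5, featureCounts 1.5.0-p3 and GRCh38. Not given in the sources used here are the strand setting and how multi-mapping reads were counted.

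Counts were analysed with edgeR 4.0.16 in R 4.3.3 (filterByExpr with a minimum count of 10, TMM scaling, robust quasi-likelihood fit). Each pair of groups was fitted on its own 6 libraries without covariates, and the difference of the responses to H2O2 on all 12. A gene was called at a Benjamini-Hochberg adjusted p under 0.01, with adjustment over all genes tested. This is the p threshold of the study, which also required a fold change and an FPKM threshold for its calls. A second rule added these, as a log2 fold change beyond 1 and a mean above 1 FPKM in at least 1 group. With totals of 15602183 to 17659496 reads, precision depended on replicate spread and, in genes of low count such as CYP51A1 (61 to 142 reads per library), on counting error. The script was tested on simulated data.

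Every gene of the list was named. From a list of 36 further pathway genes, those past both thresholds in any comparison could be named, up to 8 by size of change, beside ATG7 and genes that overlap a member. Some genes of that list are counted but not reported here by name. The genes and lists were chosen with earlier results of these data known. Alternatives were DESeq2 1.42.0, RLE scaling, no filter, at least 10 counts in every library, fits of all 12 libraries, a block for replicate number, limma 3.58.1 on log2(FPKM + 1), a correction for gene length (lowess, span 0.3) and each library left out in turn. Promoter windows were read from RefSeq on GRCh38.p14.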

Additional observations from a re-analysis of the deposited data

Results flagged for a closer look

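For 12 of the 31 genes the response to H2O2 differed between ATG7 KO and WT cells by the test of the difference itself. The differences of the log2 responses, ATG7 KO minus WT, were -1.57 for IDI1, -1.41 for CYP51A1, -1.37 for MSMO1, -1.09 for MVD, -1.08 for HMGCS1, -1.01 for DHCR7 and for TM7SF2, -0.99 for FDFT1, -0.93 for INSIG1, -0.75 for SCD, -0.69 for SQLE and -0.65 for LSS. HMGCS1, IDI1, FDFT1, SQLE, LSS, CYP51A1, MSMO1, DHCR7 and INSIG1 also passed in each of the 12 fits that left out 1 library, while MVD failed in 1, TM7SF2 in 4 and SCD in 9 of them. With 3 libraries per group, the values of single genes were not tested for outliers. The library that stands apart, untreated ATG7 KO replicate 1, is described in the report.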

How the results depend on the processing

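Each gene called in the report kept the sign of its log2 fold change under the alternatives run, and scaling by RLE changed no count by more than 1.5 times. Among values of single genes under an alternative, 2465 kept sign and side of the threshold, 193 no longer passed, 73 newly passed and 44 changed sign, the cause untested in each. For H2O2 against 0 h in WT cells, DESeq2 called 5 genes higher, a fit of all 12 libraries called 4 higher and 9 lower, and limma on FPKM and the gene length correction each left 1 past the fold threshold. In ATG7 KO cells, 0 were higher with limma. For ATG7 KO against WT in untreated cells, 7 were higher with DESeq2 or the length correction, 11 with all 12 libraries and 2 with limma, and 0 were past the fold threshold with limma or the length correction. After H2O2, 1 was higher with all 12 libraries, and 0 were past the fold threshold with at least 10 counts in every library, limma or the length correction. For the difference of responses, 1 gene was higher without a filter on low counts, and 3 were past the fold threshold with limma. The same-numbered libraries' deviations correlated at -0.0429 to 0.0976, which showed no clear pairing by number but cannot exclude it. With the replicate number as a block, the calls were 9 higher and 14 lower in WT cells, 0 and 13 in ATG7 KO cells, 1 and 0 between untreated cells, 3 and 16 after H2O2, and 0 and 12 for the difference of responses.

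Without 1 library, the genes higher in WT cells numbered 5 to 8 (5 without treated WT replicate 1) and those past the fold threshold 1 to 3 (1 without untreated WT replicate 2). In ATG7 KO cells 0 to 4 were higher (4 without untreated ATG7 KO replicate 1), 6 to 23 lower and 3 to 6 past the fold threshold. Between untreated cells 0 to 16 were higher, 0 to 3 lower and 0 to 1 past the fold threshold. After H2O2, 0 to 1 were past the fold threshold, with 0 without treated WT replicate 1. For the difference of responses, 0 to 1 were higher, 9 to 18 lower and 4 to 8 past the fold threshold (4 without treated ATG7 KO replicate 3).

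None of the genes that changed sign had passed the test in that comparison. With the length correction they were NSDHL -0.10, FASN 0.11 and FADS1 0.13 in WT cells after H2O2. In untreated ATG7 KO against WT cells they were SCAP 0.01, FADS2 0.17 and TMEM97 -0.06, and after H2O2 MVK -0.05 and FASN -0.13. FASN alone then passed (adjusted p = 0.00636). In the difference of responses they were NSDHL 0.03, SCAP -0.10, FASN and ELOVL6 -0.01 and ABCA1 -0.17. Other filters gave ACACA 0.00, MVK -0.01 and FASN -0.00 after H2O2, and SC5D 0.02 and SCAP -0.00 in the difference. Leaving out 1 library gave EBP -0.09 to 0.04 in WT cells, and INSIG2 -0.05 to 0.38 and FASN -0.09 to 0.33 in ATG7 KO cells. For ATG7 KO against WT it gave, untreated, FDPS -0.04 to 0.11, FASN -0.42 to 0.00, ELOVL6 -0.05 to 0.10, FADS2 -0.05 to 0.05, ABCA1 -0.01 to 0.36 and TMEM97 -0.03 to 0.09. After H2O2 it gave MVK -0.06 to 0.06, EBP -0.01 to 0.09, SCAP -0.07 to 0.01 and FASN -0.02 to 0.05, and for the difference SC5D -0.06 to 0.05 and ABCA1 -0.01 to 0.35.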
